A study of Mus musculus with 9 samples.

Results

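Heat shock, chaperone and cold-inducible genes were examined in the aorta of male mice with and without the clock transcription factor BMAL1, encoded by Arntl. A gene was taken when a probe set was paired with it alone and its symbol began with Hspa, Hspb, Hspd1, Hspe1, Hsph1, Hsp90 or Dnaj, or was Bag3, Chordc1, Stip1, Fkbp4, Cryab or Cirbp. This gave 78 of the 18193 genes that had a probe set of their own, with 184 of the 45037 probe sets. Each gene is represented by the probe set with the highest mean over the 9 arrays, and the other 106 probe sets are described separately. Rbm3 was on the list too, but both of its probe sets were also paired with Rbm3-ps, so it has no row of its own. Hsp90ab1 matched the rule by name and had no probe set listed under it. The name pattern also caught Hspa12a, Hspa12b, Hspa14, Hspb11 and Hspbap1, which were kept and are described as members by name.

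Total RNA of the aorta was hybridised to Affymetrix mouse arrays, 1 array per mouse sample, and the deposited values were log2 expression. There were 5 arrays labelled BMAL+/+ (F01, F04, F07, F09 and F10) and 4 labelled BMAL-/- (F02, F03, F05 and F08). All mice were male and partially backcrossed onto C57Bl/6J, had at least 2 weeks in a cycle with 12 h of light, and then spent at least 30 h in constant darkness before tissue was taken at ZT14. The vessels were perfused with saline and water before dissection. The age of the mice and the make of the allele are not given in the sources used here. The labels call the samples biological replicates. The title and strain of F01 say BMAL+/+ while its source name says BMAL-/-, and it was kept as BMAL+/+.

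The targeted gene does not separate the groups as labelled. On its brighter probe set Arntl read 2.76, 2.79, 2.82 and 2.74 on F01, F07, F09 and F10 but 6.67 on F04, all labelled BMAL+/+, and 5.87, 6.22 and 6.05 on F02, F03 and F08 but 2.77 on F05, all labelled BMAL-/-. F04 and F05 thus stood with the other genotype, and among the other 7 arrays the transcript was higher in those labelled BMAL-/-. The sources used here do not give which part of the gene was deleted relative to these probes. Every direction below is therefore that of the labels. Results are shown for all 9 arrays under their labels, and for 7 arrays without F04 and F05 (4 labelled BMAL+/+ and 3 labelled BMAL-/-). The second comparison is a subset of the first, so the pair are not independent.

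The arrays also differed in RNA quality. For beta-actin, the control probe set at the 3' end exceeded the one at the 5' end by 4.24, 4.20 and 3.91 log2 units on F02, F03 and F04, by 2.72 on F01, by 2.30 on F05, and by 1.38 to 1.80 on F07, F08, F09 and F10. A wide difference is the usual sign of broken RNA or short labelled product. The arrays with the widest difference were thus F04 and 2 of the 4 labelled BMAL-/-, while F08 was the array labelled BMAL-/- nearest to the narrow end. Smooth muscle markers were present on every array, with all 6 measured. Their mean level was 11.34 to 12.45 in BMAL+/+ and 10.69 to 12.20 in BMAL-/-, lowest on F02, F03 and F04. Genotype differences were therefore also fitted with the beta-actin difference as a covariate and without F02, F03 and F04, both chosen after seeing the data. In whole tissue, fewer cells of a type and less RNA per cell cannot be told apart.

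Heat shock proteins are chaperones that hold, fold or refold other proteins. HSP70 proteins work through cycles of ATP use that J-domain proteins (the DNAJ families) start and exchange factors such as BAG3 and HSP110 proteins end, HSP90 acts late on folding clients with helpers such as STIP1 and FKBP4, and small heat shock proteins bind unfolding clients without ATP. Heat shock factor 1 raises the inducible genes when cytosolic proteins unfold, separate sets serve the endoplasmic reticulum and mitochondria, and Cirbp and Rbm3 rise with mild cooling and follow body temperature over the day.

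None of the 78 genes passed the test in either comparison. With limma over all 45037 probe sets and a threshold of 0.05 on the Benjamini-Hochberg adjusted p, 0 probe sets passed in the 9 arrays (0%), where 3903 had an unadjusted p under 0.05 (8.67%), and 4 passed in the 7 arrays (0.00888%), where 10680 had an unadjusted p under 0.05 (23.7%). The smallest adjusted p of a member was 0.37 in the 9 arrays and 0.208 in the 7. The lowest and highest differences (BMAL-/- minus BMAL+/+, log2) were -1.26 and 0.55 in the 9 arrays and -2.21 and 0.86 in the 7. No difference below is therefore a call, and values are given as measured.

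The 63 members with a mean of at least 4 over the arrays stand clear of the dense floor of the deposited values, and counts are given for them. In the 9 arrays 0 of them were lower at an unadjusted p under 0.05, against 1.2% of the 9699 genes at that level, and 2 were higher, Hspe1 and Dnajc30, against 0.784%. Their median difference was -0.01, beside 0.01 over those genes. In the 7 arrays 11 were lower (17.5% of 63, against 7.37% of all genes) and 3 were higher, Hspe1, Dnajc30 and Hspa14 (4.76%, against 7.67%). The median was -0.09, beside 0.02. Of these 63, 6 had every BMAL-/- array below every BMAL+/+ array (9.52%, against 5.66% of all genes) and 2 the opposite (3.17%, against 7.15%).

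Markers of other cells of the vessel wall differed in the same 7 arrays, none of them with an adjusted p under 0.05. Of all genes with a mean of at least 4, 7.37% were lower and 7.67% higher at an unadjusted limma p under 0.05 there. All 5 macrophage markers were lower at an unadjusted limma p under 0.05 (median -1.80), and their mean level was 7.31 to 8.50 in BMAL+/+ and 5.71 to 6.89 in BMAL-/-, without overlap. Of the smooth muscle markers 4 of 6 were lower at that level (median -1.18, 12.08 to 12.45 against 10.69 to 12.08), and of the fibroblast markers 3 of 5 (median -1.17, 10.28 to 10.94 against 9.11 to 10.30). Of the 5 endothelial markers 2 were lower and 1 higher (median -0.32, 5.76 to 6.13 against 5.29 to 5.91), with Tie1 near the floor. The 4 measured fat markers had a median of -0.36 and 0 at that level (13.36 to 14.43 against 12.92 to 14.02). With F04 counted, macrophage means were lowest on F02, F03 and F04 (6.34, 5.71 and 6.42), and so were fibroblast means (9.66, 9.11 and 10.09). These arrays had the widest 3' minus 5' difference. F08 averaged 6.89 for macrophage, 10.30 for fibroblast and 12.08 for smooth muscle markers. The part of RNA quality in the markers, and of these cells in the members' values, was not tested.

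The 11 lower genes of the 7 arrays were Hspa1a, Hspa1b, Hspa2, Dnaja2, Dnajb1, Dnajb4, Dnajc10, Bag3, Hspb1, Hspb7 and Hspb8. That count went to 3 without F02, 4 without F03, 4 without F07 and 5 without F10, settings for which no share over all genes was taken. With the beta-actin covariate all 11 still had a difference below 0, between -1.42 and -0.17, but 10 of the 11 were smaller and 0 of them had an unadjusted p under 0.05. Over all 9699 genes the share lower at that level also fell, from 7.37% to 3.08% with the covariate. Without F02, F03 and F04, which leaves F08 alone against 4 arrays, the 11 differences lay between -1.59 and -0.23. With 1 array in a group, F08 is assumed to vary like the BMAL+/+ arrays, which alone give the spread, so these are given as values with no test. Over the 63 members the median was then 0.04 with the covariate and -0.02 without the 3 arrays. None of the 4 BMAL+/+ arrays in this comparison had a difference as wide as F02 and F03, so on these arrays genotype and RNA quality cannot be told apart.

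**Figure D1:**
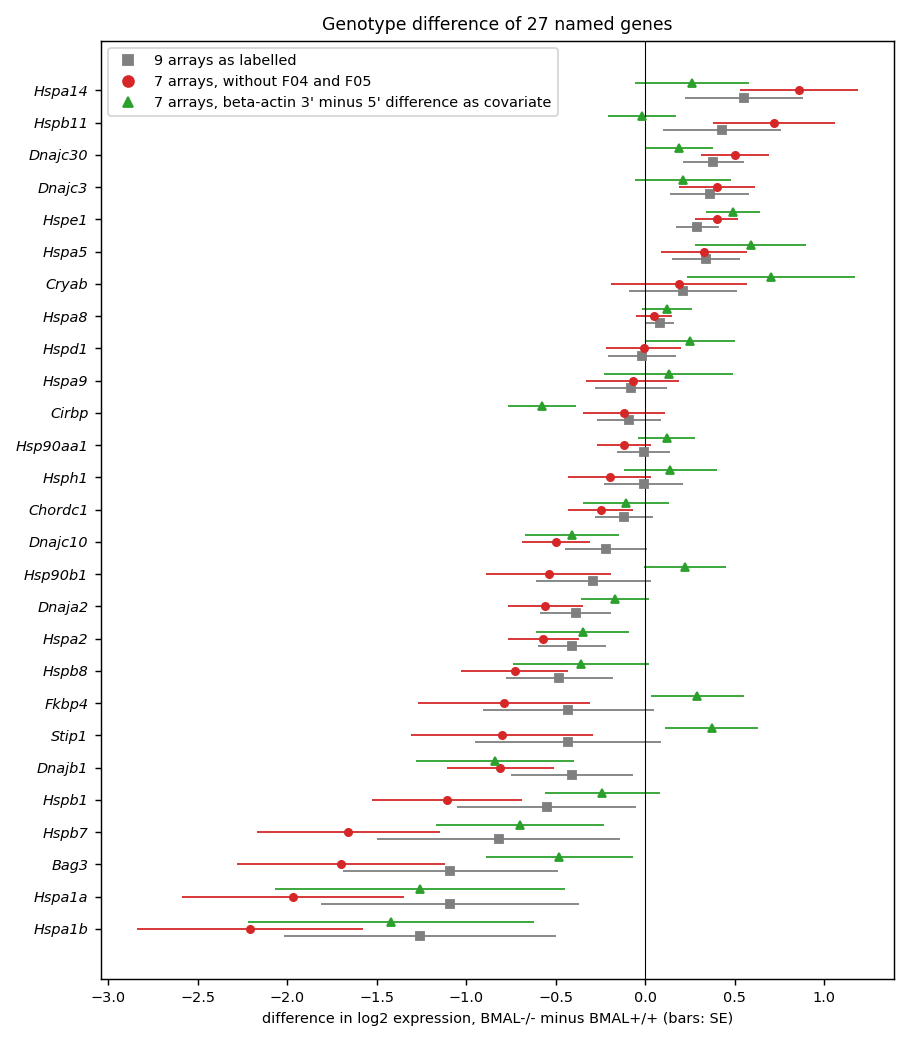
Difference in log2 expression (BMAL-/- minus BMAL+/+) of the 27 named genes, with the SE as bars, for 9 arrays as labelled (grey squares), 7 arrays without F04 and F05 (red circles) and the 7 arrays with the beta-actin 3' minus 5' difference as a covariate (green triangles). Hspa1b, Hspa1a, Bag3 and Hspb7 lie farthest below 0 in the 7 arrays (-2.21, -1.97, -1.70 and -1.66), and Stip1, Fkbp4 and Hsp90b1 move from below to above 0 with the covariate.

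Hspa1a and Hspa1b encode the heat-inducible HSP70 and are neighbouring, nearly identical copies, so their probes may read each other's transcript and the pair are not separate evidence. Their promoters are shown because these genes differed the most. The RefSeq sequences (GRCm38.p6) are the 250 bases before the start on the minus strand, at chr17:34972157-34972406 for Hspa1a and chr17:34959239-34959488 for Hspa1b. Capitals mark a match to GAANNTTC, 2 facing units of the heat shock element to which heat shock factor 1 binds, which begins 104 bases before both starts.
Hspa1a: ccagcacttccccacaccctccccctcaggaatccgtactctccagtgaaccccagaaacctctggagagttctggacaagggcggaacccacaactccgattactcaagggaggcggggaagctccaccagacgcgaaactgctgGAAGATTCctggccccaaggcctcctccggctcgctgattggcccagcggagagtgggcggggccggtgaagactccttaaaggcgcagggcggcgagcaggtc
Hspa1b: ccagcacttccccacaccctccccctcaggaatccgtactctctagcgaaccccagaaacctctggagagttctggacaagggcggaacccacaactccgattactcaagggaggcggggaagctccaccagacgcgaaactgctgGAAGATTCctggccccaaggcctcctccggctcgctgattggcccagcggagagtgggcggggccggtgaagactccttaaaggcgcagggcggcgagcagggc
Of 250 aligned bases, 247 were identical (98.8%).

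Hspa1b read 10.91, 13.00, 11.06, 11.88 and 9.89 on F01, F07, F09, F10 and F04, labelled BMAL+/+, and 8.45, 9.92, 10.12 and 11.85 on F02, F03, F08 and F05, labelled BMAL-/-. F04 and F05 again lay on the other group's side, and the remaining arrays did not overlap. As labelled, the level was 11.35 ± 1.16 (SD, n = 5) against 10.09 ± 1.39 (SD, n = 4), and the 9 arrays gave a difference of -1.26 ± 0.76 (SE, limma adjusted p = 0.385). In the 7 arrays they were 11.71 ± 0.96 (SD, n = 4) and 9.50 ± 0.91 (SD, n = 3), 4.63-fold lower in BMAL-/- (-2.21 ± 0.63, SE, limma adjusted p = 0.208). The other 2 Hspa1b probe sets gave -2.73 and -2.47 there. With the covariate the 7-array difference was -1.42 ± 0.80 (SE), and with F08 alone against the 4 BMAL+/+ arrays it was -1.59.

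Hspa1a showed the same layout, with 8.82, 10.90, 8.50, 9.65 and 7.85 on F01, F07, F09, F10 and F04 and 6.81, 7.59, 8.09 and 9.71 on F02, F03, F08 and F05. Its difference was -1.09 ± 0.72 (SE) in the 9 arrays and -1.97 ± 0.62 (SE) in the 7, where it was 3.92-fold lower (limma adjusted p = 0.208). Within BMAL+/+, F07 read highest for both genes and exceeded F04 by over 3 log2 units in each. In the 9 arrays the range within BMAL+/+ was thus wider than the difference between the group means. Without F04 and F05 the BMAL+/+ arrays ran from 10.91 to 13.00 for Hspa1b, beside a difference of -2.21. For Hspa1a they ran from 8.50 to 10.90, beside -1.97.

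The constitutive HSP70s behaved differently from each other. Hspa8, the main housekeeping HSP70, read between 14.34 and 14.70 on all 9 arrays, and its difference was 0.08 ± 0.08 (SE) in the 9 and 0.05 ± 0.10 (SE) in the 7. Its other probe sets did not share that flat line. A second one read 13.15, 13.42, 13.07 and 13.05 on F10, F09, F07 and F08 but 12.13, 12.04 and 11.73 on F02, F03 and F04, so the value for Hspa8 depends on the probe set. It read 12.07 on F01, just below F02, and 12.64 on F05. Hspa2, best known from the testis, read 6.33 to 6.51 on the 4 BMAL+/+ arrays of the smaller comparison and 6.02, 5.40 and 6.18 on F02, F03 and F08 (-0.57 ± 0.20, SE). These did not overlap. F05 read 6.21, between them, and F04 read 6.05, among the BMAL-/- values. Hspa1l, a testis gene, averaged 3.46 and was near the floor.

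**Figure D2:**
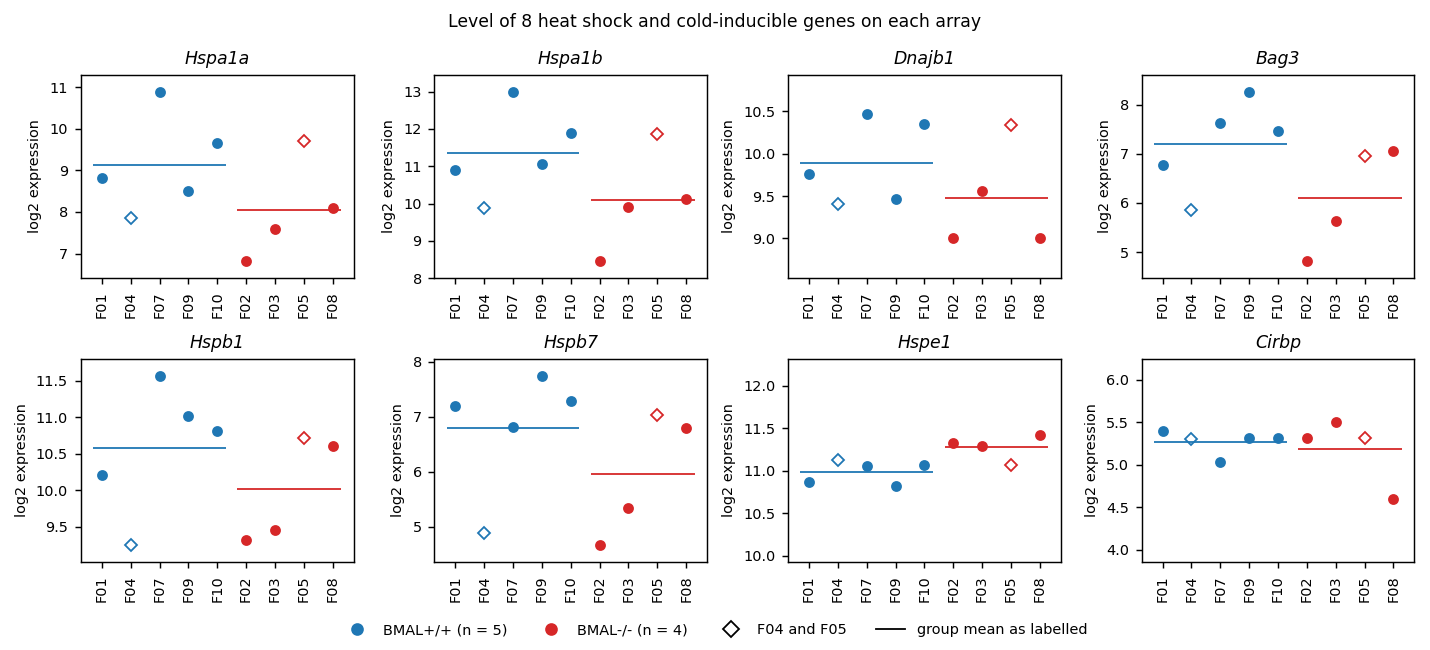
Log2 expression of 8 genes on each of the 9 arrays, BMAL+/+ in blue and BMAL-/- in red, with F04 and F05 as open diamonds and lines at the means of the groups as labelled. Each panel has its own axis range. For Hspa1a and Hspa1b F04 lies low and F05 high within its labelled group, while Cirbp is lowest on F08 (4.60).

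Of the proteins that drive the HSP70 cycle, Dnajb1, the heat-inducible J-domain partner, read 9.76, 10.46, 9.46, 10.35 and 9.41 on F01, F07, F09, F10 and F04 and 9.0, 9.56, 9.01 and 10.33 on F02, F03, F08 and F05. F03 lay just above F09, so even the 7 arrays overlapped. The difference was -0.41 ± 0.34 (SE) in the 9 arrays and -0.81 ± 0.30 (SE, limma adjusted p = 0.208) in the 7. The 7-array value was -0.84 ± 0.44 (SE) with the covariate and -1.0 with F08 alone, while the 9-array value was -0.23 ± 0.36 (SE) with the covariate and -0.34 ± 0.48 (SE) without F02, F03 and F04. A second Dnajb1 probe set differed by -1.49 in the 7 arrays.

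Bag3, an exchange factor that links HSP70 to the disposal of damaged muscle proteins, read 6.78, 7.62, 8.27, 7.47 and 5.86 on F01, F07, F09, F10 and F04 and 4.81, 5.63, 7.05 and 6.95 on F02, F03, F08 and F05. The low readings were on the 3 arrays with the widest 3' minus 5' difference, F02, F03 and F04, and F08 lay within the BMAL+/+ range. The difference was -1.09 ± 0.60 (SE) in the 9 arrays and -1.70 ± 0.58 (SE, limma adjusted p = 0.208) in the 7. It was -0.48 ± 0.41 (SE) with the covariate. The partner in this role, Hspbp1, differed by -0.09 in the 7 arrays.

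Among the DNAJA proteins, general J-domain partners of the cytosol, 3 of 4 lay below 0 in the 7 arrays. Dnaja2 differed by -0.56 ± 0.21 (SE), Dnaja1 by -0.35 ± 0.21 (SE) and Dnaja4 by -0.28 ± 0.30 (SE), while the mitochondrial Dnaja3 was at 0.43 ± 0.27 (SE). Outside the endoplasmic reticulum, 5 of 9 DNAJB genes had a mean of at least 4, with a median of -0.21. Dnajb4, the other of these at an unadjusted p under 0.05, differed by -0.72 ± 0.28 (SE). F08 read 9.97 for it, within the 9.90 to 10.90 of the 4 BMAL+/+ arrays.

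The DNAJC proteins carry a J domain into special tasks such as synaptic vesicles and splicing, and they did not lean the same way. Those of the endoplasmic reticulum are counted with that compartment below. Of the 17 others with a mean of at least 4, 13 lay above 0 in the 7 arrays and 4 below. Of all genes at that level, 47.7% lay below 0. Their median was 0.11, with a range from -0.53 (Dnajc4) to 0.50 (Dnajc30). With the covariate Dnajc5, Dnajc7, Dnajc8, Dnajc13, Dnajc14, Dnajc16 and Dnajc21 moved from above to below 0. Dnajc4, Dnajc9 and Dnajc17 moved from below to above 0. Dnajc30, a mitochondrial member, read 7.89, 7.48, 7.50, 7.39 and 7.87 on F01, F07, F09, F10 and F04 and 8.05, 8.33, 7.83 and 7.83 on F02, F03, F08 and F05. Its groups overlapped only through F01 in the 7 arrays (0.50 ± 0.19, SE, limma adjusted p = 0.208). The value was 0.19 ± 0.19 (SE) with the covariate.

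The HSP110 protein Hsph1, heat-inducible and an exchange factor for HSP70, read 9.53, 10.41, 10.14, 10.14 and 9.57 on F01, F07, F09, F10 and F04 and 9.88, 9.67, 10.04 and 10.23 on F02, F03, F08 and F05. All BMAL-/- values fell inside the BMAL+/+ range. Its difference was -0.01 ± 0.22 (SE) in the 9 arrays and -0.20 ± 0.23 (SE) in the 7. The second Hsph1 probe set read lowest on F02 (6.71), F04 (7.41) and F03 (7.44) and gave -1.08 ± 0.53 (SE) in the 7. The related Hspa4 was at 0.34 ± 0.17 (SE) and Hspa4l at -0.10 ± 0.47 (SE) there.

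Stip1 and Fkbp4, helpers of HSP90, changed sign when the 3' minus 5' difference was taken into account, and the values of HSP90 itself overlapped between labels. Hsp90aa1, the inducible cytosolic HSP90, read 12.04, 12.57, 12.27, 12.28 and 11.87 on F01, F07, F09, F10 and F04 and 12.08, 12.06, 12.36 and 12.29 on F02, F03, F08 and F05, which overlap throughout (-0.12 ± 0.15, SE, in the 7 arrays). Chordc1, a zinc-binding HSP90 partner, was at -0.25 ± 0.18 (SE). Stip1, the bridge from HSP70 to HSP90, read 5.75, 5.82 and 5.41 on F02, F03 and F04 and 7.35 on F08, beside 7.19, 7.65 and 7.40 on F07, F09 and F10. Its 7-array difference of -0.80 ± 0.51 (SE) became 0.37 ± 0.26 (SE) with the covariate. Fkbp4, a prolyl isomerase that helps steroid receptors on HSP90, went in the same way from -0.79 ± 0.48 (SE) to 0.29 ± 0.26 (SE).

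**Figure D3:**
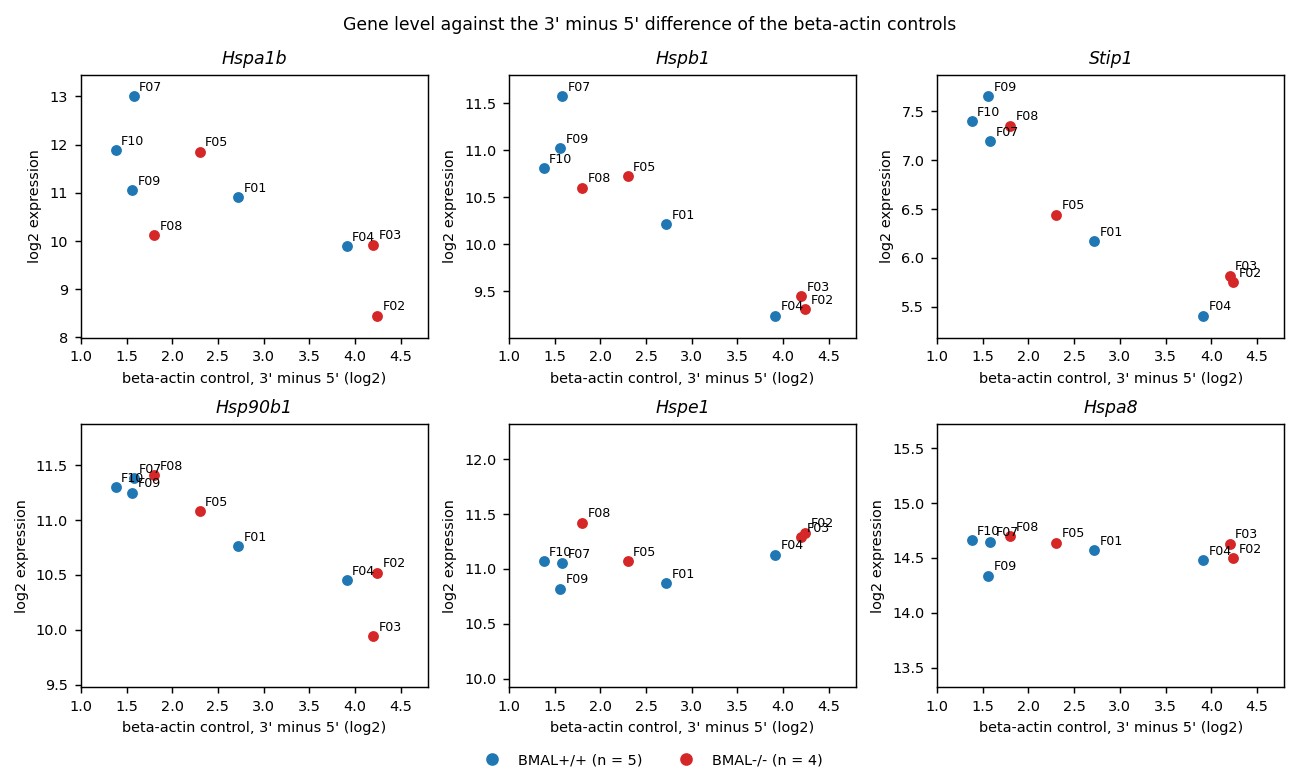
Log2 expression of 6 genes (y axis) against the beta-actin 3' minus 5' difference of each array (x axis, log2), BMAL+/+ in blue and BMAL-/- in red. Hspb1, Stip1 and Hsp90b1 are lower on the arrays with a wide difference, F02, F03 and F04, whatever their label, while Hspa8 stays between 14.34 and 14.70.

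Small heat shock proteins are abundant in muscle, where they protect the contractile filaments. Of the 6 with a mean of at least 4, 5 lay below 0 in both comparisons. Of all genes at that level, 49.2% lay below 0 in the 9 arrays and 47.7% in the 7. The median of the 6 was -0.40 in the 9 arrays and -0.67 in the 7. With the covariate Hspb2 and Hspb6 moved above 0 in the 7 arrays, to 0.05 ± 0.33 (SE) and 1.1 ± 0.40 (SE). Cryab, already above 0, was then at 0.70 ± 0.47 (SE), and Hspb1, Hspb7 and Hspb8 stayed below 0. In the 9 arrays Hspb1, Hspb2 and Hspb6 moved above 0 with it, and only Hspb7 and Hspb8 stayed below. Hspb7, a gene of heart and skeletal muscle, read 7.20, 6.81, 7.75, 7.29 and 4.89 on F01, F07, F09, F10 and F04 and 4.66, 5.35, 6.80 and 7.04 on F02, F03, F08 and F05. Here too the 3 low arrays were F02, F03 and F04, and F08 lay just below F07. The difference was -0.82 ± 0.68 (SE) in the 9 arrays, -1.66 ± 0.51 (SE, limma adjusted p = 0.208) in the 7, and -0.70 ± 0.47 (SE) with the covariate.

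Hspb1, which is induced by heat and binds actin filaments, read 10.21, 11.57, 11.02, 10.81 and 9.24 on F01, F07, F09, F10 and F04 and 9.31, 9.45, 10.60 and 10.72 on F02, F03, F08 and F05. F02, F03 and F04 lay between 9.24 and 9.45, below the other 6 arrays of either label. The 7-array difference was -1.11 ± 0.42 (SE), and -0.24 ± 0.32 (SE) with the covariate. Hspb8, the partner of BAG3, differed by -0.73 ± 0.30 (SE) in the 7 arrays and by -0.36 ± 0.38 (SE) with the covariate.

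Cryab, the lens and muscle small heat shock protein, was at 0.19 ± 0.38 (SE) in the 7 arrays on its main probe set, but at -1.49 ± 0.95 (SE) on the second one, so its direction depends on the probe set. The main one read 11.47 to 11.91 on 7 of the arrays and 12.81 on F07 and 12.67 on F08, 1 of each label. Hspb6 also read highest on F08 (11.30) and F07 (10.91). The 6 skeletal muscle markers averaged 11.02 on F07 and 11.09 on F08, but nearly as much on F02 (10.83) and F10 (10.67), where Cryab was not high. They ranged from 3.83 on F01 to 11.02 in BMAL+/+ and from 6.96 on F05 to 11.09 in BMAL-/-, none of the 6 with an adjusted p under 0.05. The 5 heart muscle markers ranged from 5.67 on F04 to 10.46 on F09 in BMAL+/+ and from 5.08 on F02 to 9.40 on F03 in BMAL-/-. In the 7 arrays all 5 lay below 0 (median -2.03, 7.60 to 10.46 against 5.08 to 9.40). Of them 1, Myl7 (-4.17), was lower at an unadjusted limma p under 0.05, and 0 had an adjusted p under 0.05. The 6 skeletal muscle markers all lay above 0 there (median 1.36), 0 of them at an unadjusted limma p under 0.05. The part of striated muscle in these values was not tested.

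The mitochondrial chaperonin is made of Hspd1 (HSP60) and its lid Hspe1 (HSP10), whose genes lie head to head and share a promoter. The Hspe1 side is shown because Hspe1 had the smallest p among members averaging at least 4 and reading higher in the 7 arrays. It covers chr1:55087898-55088147 on the plus strand (RefSeq, GRCm38.p6), and capitals mark 2 overlapping matches to a heat shock element of 3 units, TTCNNGAANNTTC from base 89 and GAANNTTCNNGAA from base 84 before the start.
Hspe1: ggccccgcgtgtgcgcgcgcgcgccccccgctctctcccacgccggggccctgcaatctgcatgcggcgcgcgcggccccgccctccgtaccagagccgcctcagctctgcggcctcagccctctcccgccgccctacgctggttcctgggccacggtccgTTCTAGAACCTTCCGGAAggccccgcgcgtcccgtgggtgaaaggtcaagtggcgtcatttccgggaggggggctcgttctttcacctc

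Hspe1 read 10.87, 11.05, 10.82, 11.07 and 11.13 on F01, F07, F09, F10 and F04 and 11.33, 11.29, 11.42 and 11.07 on F02, F03, F08 and F05. F02, F03 and F08 lay above every BMAL+/+ array, and F05 lay among them. The level was 10.99 ± 0.14 (SD, n = 5) against 11.28 ± 0.15 (SD, n = 4), a difference of 0.29 ± 0.12 (SE, limma adjusted p = 0.37). In the 7 arrays it was 0.40 ± 0.12 (SE, limma adjusted p = 0.208), 1.32-fold, and with the covariate it was 0.49 ± 0.15 (SE). With F08 as the only BMAL-/- array it was 0.47, a value with no replicate in that group. The second Hspe1 probe set went the other way, at -0.96 ± 0.71 (SE), and it read 5.43 on both F03 and F04 beside 7.38 to 8.59 on F07, F08, F09 and F10. It read 6.66 on F02, 6.36 on F01 and 6.73 on F05.

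Hspd1 did not move with its neighbour, with differences of -0.02 ± 0.19 (SE) in the 9 arrays and -0.01 ± 0.21 (SE) in the 7. Hspa9, the mitochondrial HSP70, was at -0.08 ± 0.20 (SE) and -0.07 ± 0.26 (SE). Both read highest on F09, at 11.29 and 11.72.

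Of the 11 chaperones of the endoplasmic reticulum, 10 had a mean of at least 4, and their median was 0.01 in the 9 arrays and 0.02 in the 7. Hspa5 (BiP), the HSP70 of that compartment and the usual readout of its stress response, is shown with the element through which that response acts. The 250 bases are chr2:34771840-34772089 on the plus strand (RefSeq, GRCm38.p6), and capitals mark the match to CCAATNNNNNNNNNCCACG that begins 65 bases before the start.
Hspa5: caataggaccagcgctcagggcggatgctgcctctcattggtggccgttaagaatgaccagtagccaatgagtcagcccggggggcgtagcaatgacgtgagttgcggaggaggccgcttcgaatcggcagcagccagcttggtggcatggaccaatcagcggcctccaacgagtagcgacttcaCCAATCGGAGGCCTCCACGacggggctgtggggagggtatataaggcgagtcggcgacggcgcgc

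Hspa5 read 12.03, 12.36, 11.64, 12.28 and 12.26 on F01, F07, F09, F10 and F04 and 12.51, 12.01, 12.71 and 12.57 on F02, F03, F08 and F05. All BMAL-/- arrays but F03 exceeded every BMAL+/+ array. The difference was 0.34 ± 0.19 (SE, limma adjusted p = 0.374) in the 9 arrays and 0.33 ± 0.24 (SE) in the 7. Here F05 at 12.57 kept to its label, above every BMAL+/+ array, while F04 at 12.26 lay inside the range of both labels. Its other 2 probe sets gave -0.44 and 0.81 in the 7 arrays, so the direction depends on the probe set. Hsp90b1, the HSP90 of the same compartment, read 10.52, 9.94 and 10.45 on F02, F03 and F04 and 10.76 to 11.41 elsewhere (-0.54 ± 0.35, SE, in the 7 arrays, and 0.22 ± 0.23, SE, with the covariate).

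The J-domain proteins of the endoplasmic reticulum split. Dnajc10, which reduces disulfide bonds, read 8.17 to 8.56 on F01, F07, F09 and F10 and 7.87, 7.59 and 8.09 on F02, F03 and F08, without overlap (-0.50 ± 0.19, SE), but F05 read 8.69, above all of them. Dnajc3, an inhibitor of the stress kinase PERK, read 8.68 to 9.39 on the same 4 BMAL+/+ arrays and 9.41 to 9.67 on the 3 BMAL-/- arrays, also without overlap (0.40 ± 0.21, SE). F04 at 9.77 and F05 at 9.91 exceeded both groups. The other genes of the compartment lay between -0.28 (Dnajb9) and 0.14 (Dnajb12) in the 7 arrays, besides Dnajc25 near the floor.

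Cirbp, the cold-inducible RNA-binding protein, read 5.40, 5.03, 5.31, 5.31 and 5.30 on F01, F07, F09, F10 and F04 and 5.31, 5.50, 4.60 and 5.31 on F02, F03, F08 and F05. Exactly the same value, 5.31, was deposited for F02, F05, F09 and F10, and 19 of the 78 members (24.4%) had at least 2 arrays at exactly the same value, as had 24.9% of all genes. The differences were -0.09 ± 0.18 (SE) in the 9 arrays and -0.12 ± 0.23 (SE) in the 7, both carried by F08. With the covariate the 7-array value was -0.58 ± 0.19 (SE, limma adjusted p = 0.843), and without F02, F03 and F04, where BMAL-/- is F08 alone, it was -0.66. Without F08 the 7-array difference was 0.14. The 2 probe sets shared by Rbm3, the other cold-inducible gene, and Rbm3-ps differed by -0.24 ± 0.19 (SE) and 0.00 ± 0.24 (SE) in the 7 arrays.

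Of the 5 members by name, Hspa14, a ribosome-associated HSP70, was at 0.86 ± 0.33 (SE) and Hspb11, which belongs to the transport machinery of cilia, at 0.72 ± 0.34 (SE) in the 7 arrays. Both read highest on F02, F03 and F04. With the covariate they were at 0.26 ± 0.32 (SE) and -0.02 ± 0.19 (SE). Hspa12a and Hspa12b, distant HSP70 relatives, were at -0.29 ± 0.28 (SE) and -0.27 ± 0.12 (SE), and Hspbap1 was near the floor.

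The 15 members near the floor include genes known from the testis, such as Dnajb3, Dnajb8, Dnajb13 and Hspb9, and averaged from 2.09 to 3.75. In the 9 arrays 1 of them, Dnajc27, was higher and had an unadjusted p under 0.05 (6.67%, against 13.1% of the 8494 genes at that level in this direction). In the 7 arrays there were 3, Dnajb7, Dnajc27 and Dnajc5g, all higher by 0.06 to 0.15, which is 3 of 15 against 30.2% of those genes. The median over all genes near the floor was itself 0.05 there.

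Different probe sets of the same gene often disagreed. Of the 65 other probe sets with a mean of at least 4, 42 had the sign of the gene's main probe set in the 7 arrays and 23 the opposite, and in the 9 arrays 37 and 28. For Hspa1b all 3 probe sets followed each other across arrays, whereas for Hspa8, Hsph1 and Hspe1 the second probe set was lower on F02, F03 and F04 than on F07, F08, F09 and F10. The dimmest of the 4 Hspa8 probe sets had another pattern, high on F07 (8.17) and F10 (8.13) and between 5.97 and 6.62 on the other arrays. Where these probes lie along the transcripts was not analysed here.

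**Figure D4:**
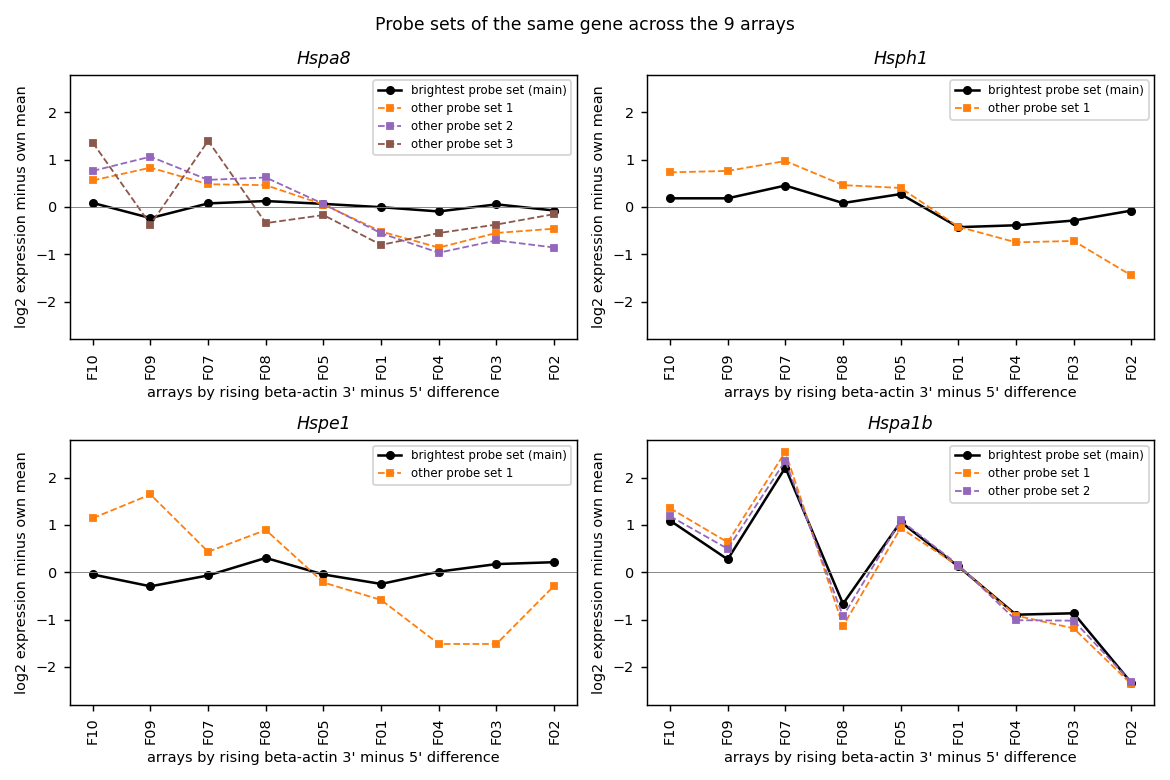
Log2 expression of each probe set minus its own mean over the 9 arrays, for 4 genes, with the arrays ordered by rising beta-actin 3' minus 5' difference (x axis). The brightest probe set is black, and the others are dashed. For Hspa8, Hsph1 and Hspe1 the second probe set is lower on F02, F03 and F04 than on F07, F08, F09 and F10, while the 3 Hspa1b probe sets run together. On that second probe set F01 lies below F02 for Hspa8 and Hspe1.

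Of the promoters, 64 of the 78 members had an entry in the RefSeq table, with 82 windows of 250 bases. The 3-unit heat shock element (GAANNTTCNNGAA or TTCNNGAANNTTC, either strand) was found in 4.88% of them and in 0.466% of all 32851 windows, in Hspd1, Hspe1 and Dnajb6. The Hspd1 and Hspe1 windows overlap and hold the same site, read on opposite strands, and both Dnajb6 windows hold a single site. These sites are therefore counted more than once in the members' share. Overlapping windows were counted separately throughout. The 2-unit form (GAANNTTC or TTCNNGAA, which the longer form contains) was in 20.7% against 12.8%, and the endoplasmic reticulum stress element, in Hspa5, Hsp90b1 and Dnajc3, in 3.66% against 0.113%. The E-box CACGTG, the element bound by BMAL1 with its partner CLOCK, was in 7.32% against 6.02%, in Dnajb9, Dnajc1, Dnajc16, Hspbap1, Hspd1 and Hsph1. In the 7 arrays these 6 genes lay between -0.28 (Dnajb9) and 0.03 (Dnajc16), besides Hspbap1 near the floor.

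Of 16 pairs of these genes whose co-variation was to be measured, 13 had both rows, and Pearson's r and Spearman's rho were taken over the 9 arrays with two-sided exact permutation tests. Hsph1 and Hsp90aa1, both targets of heat shock factor 1, had r = 0.92 (exact p = 0.000587, adjusted over the 13 pairs 0.00763) and rho = 0.87 (exact p = 0.00451, adjusted 0.0586). Without F01 and F04, the arrays farthest from the median of Hsph1, r was 0.90, and without F07 it was 0.89 and no longer passed after adjustment. Hsph1 with Hspa1a (r = 0.67, exact p = 0.049, adjusted 0.238) and with Hspa1b (r = 0.66, exact p = 0.0548, adjusted 0.238) did not pass. Neither did the head-to-head pair Hspd1 and Hspe1, with r = -0.07 (exact permutation p = 0.868). Arrays with a like 3' minus 5' difference were too few for a value within each level of RNA quality.

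Of 57 genes listed as regulators, co-chaperones, chaperonin, prefoldin, organelle chaperones and other heat-inducible genes, 51 were measured besides Hspbp1, and 0 passed in either comparison. Of the 46 with a mean of at least 4, 1 was lower and 1 higher at an unadjusted limma p under 0.05 in the 9 arrays (2.17% each, against 1.2% and 0.784% of all genes at that level), with a median of -0.09. In the 7 arrays 5 were lower (10.9%, against 7.37%) and 3 higher (6.52%, against 7.67%), with a median of -0.07. The 5 lower were Fkbp5, Herpud1, Cdc37, Pdia3 and P4hb, and the 3 higher Hyou1, Cct3 and Trap1. Herpud1, Cdc37, Pdia3 and P4hb read lowest on F02, F03 and F04, and the 3 higher genes read highest there. For Cdc37, Pdia3 and P4hb F08 read 9.21, 9.79 and 9.96, within the range of the BMAL+/+ arrays of this comparison. The part of RNA quality in these values was not tested. Hsf2, near the floor, was also higher at that level. Fkbp5, a glucocorticoid-induced helper of HSP90, stood out with 8.86, 8.73, 9.02 and 8.32 on F01, F07, F09 and F10, 6.75, 5.82 and 6.08 on F02, F03 and F08, 5.91 on F04 and 8.75 on F05 (-2.52 ± 0.28, SE, limma adjusted p = 0.121). It grouped the arrays as Arntl did. Herpud1, a stress gene of the endoplasmic reticulum, was at -1.54 ± 0.33 (SE).

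Leaving out a single array changed how many members passed. Without F08 in the 7-array comparison 17 of the 78 members passed (21.8%), as did 36.5% of all probe sets, and 6 of the 17 were near the floor. Of the 63 members averaging at least 4, 8 passed as lower (12.7%, against 7.16% of all genes at that level), among them Hspa1b (-2.53), Hspb7 (-2.26), Bag3 (-2.31) and Hspb1 (-1.52). The 3 that passed as higher (4.76%, against 5.31%) were Hspa14 (1.19), Hspb11 (1.06) and Hspa4 (0.49). In that setting both remaining BMAL-/- arrays, F02 and F03, had the widest 3' minus 5' differences of all arrays. No single array left out of the 9-array comparison brought a member past the threshold.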

How the data were processed

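Per the labels, 9 mouse aorta samples were hybridised to Affymetrix arrays, and the authors deposited log2 expression values. GCRMA and MAS5 are named in the submitters' processing notes, with neither role nor version. Array medians ran from 3.13 to 3.24, and precision is limited by the small number of arrays. Tests left out 64 control probe sets. Of the rest, 34945 are paired with 1 gene by the platform annotation and 932 with several, and 9160 are not listed. Symbols follow RefSeq GRCm38.p6, which held 34741. All 184 probe sets of the members carry the same symbol in both.

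Genotype was fitted with limma 3.58.1 in R 4.3.3 (lmFit, eBayes with trend), with two-sided p-values adjusted by Benjamini-Hochberg over 45037 probe sets at 0.05. The fit was tested on simulated data with independent noise. These held no shared RNA quality effect and no arrays that stood with the other genotype, so the test does not bear on either. Members and lists were chosen with earlier results of these data known. Of the genes always named, 18 had a row and 2 had none. To them were added, among other members averaging at least 4, the 3 with the smallest p per direction in each comparison, 27 in all. Alternatives were quantile normalization, centring, no trend, array weights, a filter at a mean of 4, one-way ANOVA, probe set means, F01 moved, and single arrays left out, with the RNA quality settings added after seeing the data. Two-sided exact permutation tests served correlations. Plots used matplotlib 3.10.9.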

Additional observations from a re-analysis of the deposited data

Results flagged for a closer look

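Of 54 groups of 4 or 5 arrays examined for the named genes, 4 (7.41%) held an array whose gap to the nearest other exceeded Dixon's 95% critical value, and chance flags about 1 in 20. Cryab read 12.81 on F07 in BMAL+/+, where the other arrays lay between 11.47 and 11.70, and 12.67 on F08 in BMAL-/-, where the others lay between 11.81 and 11.91. Hspa9 read 11.72 on F09, beside 10.85 to 11.06 on the other BMAL+/+ arrays. Cirbp read 5.03 on F07, below the 5.30 to 5.40 of the other BMAL+/+ arrays.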

How the results depend on the processing

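No member passed the threshold in the 9 arrays under any alternative run. In the 7 arrays 20 of 78 passed with array weights (25.6%, against 34.3% of all probe sets), and between 0 and 17 when single arrays were left out. Leaving F02, F03 and F04 out of the 7 arrays puts F08 alone in its group, so no calls are given for that setting. Over all probe sets the 4 calls of the 7 arrays became 2 with quantile normalization, 15448 with array weights, 16 with the filter at a mean of 4, 2 with F01 in BMAL-/-, 2 with the beta-actin covariate, 296 without F02, F03 and F04, and 2 to 16445 without single arrays. The 0 calls of the 9 arrays became 4 without F04 and F05 and 2 without F02, F03 and F04.

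Of members averaging at least 4, the 11 lower at an unadjusted p under 0.05 in the 7 arrays became 7 with the ANOVA. The count became 1 with the covariate (Cirbp), where the share over all genes fell too, from 7.37% to 3.08%. It became 3 to 13 without single arrays. The 3 higher became 6 with array weights, 1 with probe set means, and 1 to 5 without single arrays. Without F02, F03 and F04 these arrays leave F08 alone in its group, so no counts are given. For the other settings here and below no share over all genes was taken, so their counts are not results about the members. In the 9 arrays the 0 lower became 2 with array weights, 1 with F01 moved, 11 without F04 and F05, and 0 to 5 without single arrays (5 without F04 and 5 without F05). The 2 higher became 1 with centring, the filter, probe set means or F01 moved, 4 with array weights, 0 with the covariate, 0 without F02, F03 and F04, and 0 to 4 without single arrays.

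Reversed signs were mostly of small differences. With the covariate the 9 arrays gave 0.20 for Hsph1, 0.14 for Hsp90aa1, 0.20 for Stip1, 0.15 for Fkbp4, 0.05 for Hspb1, 0.10 for Hspd1 and 0.09 for Hsp90b1, and the 7 arrays gave 0.14 for Hsph1, 0.12 for Hsp90aa1, 0.37 for Stip1, 0.29 for Fkbp4, 0.25 for Hspd1, 0.13 for Hspa9, 0.22 for Hsp90b1 and -0.02 for Hspb11. Without F02, F03 and F04 the 9 arrays gave 0.08 for Hsph1, 0.04 for Hsp90aa1, 0.07 for Hsp90b1 and 0.03 for Dnajc10, and the 7 arrays gave 0.07 for Hsp90aa1, 0.24 for Stip1, 0.19 for Fkbp4, 0.17 for Hspd1, 0.07 for Hspa9 and 0.24 for Hsp90b1. Array weights gave 0.06 for Chordc1, -0.33 for Cryab, 0.09 for Cirbp and 0.16 for Dnajc10 in the 9 arrays, and -0.02 for Hspa8, -0.33 for Cryab, 0.05 for Hspa9 and 0.18 for Cirbp in the 7. Probe set means gave -0.25 for Hspa8, -0.19 for Cryab, -0.11 for Hspe1 and 0.02 for Hspa9 in the 9 arrays, and -0.48, -0.41, -0.28 and 0.02 for the same genes in the 7. Quantile normalization gave 0.06 for Hsph1, 0.07 for Hsp90aa1 and 0.03 for Hspd1 in the 9 arrays and 0.07 for Hspd1 and 0.00078 for Hspa9 in the 7, and centring gave -0.0032 for Hspa8 in the 7. The cause was not tested, beyond what each setting changes by its construction.

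Without single arrays the 9-array difference ranged from -0.21 to 0.01 for Chordc1, -0.20 to 0.10 for Cirbp, -0.09 to 0.08 for Hsp90aa1, -0.16 to 0.07 for Hspa9, -0.11 to 0.11 for Hspd1 and -0.11 to 0.10 for Hsph1. The 7-array range was -0.31 to 0.14 for Cirbp, -0.09 to 0.49 for Cryab, -0.02 to 0.11 for Hspa8, -0.17 to 0.13 for Hspa9 and -0.12 to 0.14 for Hspd1.

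The correlation of Hsph1 and Hsp90aa1 did not pass without F04 and F05 (0.92), without F02, F03 and F04 (0.89) or without F07, with 0.89 to 0.94 over single arrays. Probe set means gave 0.83 for Hsph1 with Hspa1b, 0.81 with Hspa1a, 0.93 with Hspa8 and 0.87 with Dnajb1. They gave 0.78 for Hspd1 with Hspe1 and 0.80 for Cryab with Hspb2. All of these passed, with an adjusted exact permutation p of 0.0107 for Hsph1 with Hspa8 and 0.0212 for each other pair. These means bring in the other probe sets of a gene. The second ones of Hspa8, Hsph1, Hspe1 and Cryab were lower on F02, F03 and F04 than on F07, F08, F09 and F10. The part of RNA quality in these correlations was not tested. Hsph1 with Hspe1 had 0.74 and did not pass (adjusted exact permutation p = 0.0538). Without F02, F03 and F04 Hsph1 with Hspe1 had 0.24 and Hspd1 with Hspe1 0.03, and over single arrays they ranged from -0.44 to 0.03 and from -0.35 to 0.65. Of the 7-array differences of named genes, 172 without single arrays and 231 under other settings kept their sign and stayed short of the threshold, as did 225 and 275 of the 9-array ones. No paired analysis was possible because the groups share no replicate number. Values near the floor carry little signal over background, and detection calls were not used here.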
